A study of Mus musculus with 7 samples.

Results

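The constitutive proteasome genes were followed at the mRNA level in cDC1 of tumor-bearing and healthy lungs. Members were taken by symbol, as all genes named Psma, Psmb, Psmc or Psmd with a number, without Psmb8, Psmb9 and Psmb10. The rule found 34 genes among the 25428 probe sets of the array, each probe set standing for 1 gene. They were 14 genes of the 20S core (8 Psma, 6 Psmb) and 20 of the 19S cap (6 Psmc, 14 Psmd). Psmb3 and Psmb5, of which Psmb5 carries the chymotrypsin-like active site, were not analysed here. The name of the group holds for most members only. Psma8 and Psmb11 are restricted to the testis and the thymus, and Psmd5, Psmd9 and Psmd10 encode chaperones of cap assembly that do not stay in the finished particle.

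The proteasome is the protease that destroys proteins marked with ubiquitin and supplies most of the peptides that MHC class I shows to CD8 T cells. Its 20S core is a barrel of alpha (Psma) and beta (Psmb) subunits, some of the beta subunits carrying the active sites, and the 19S cap holds the ATPases (Psmc) and the non-ATPase subunits (Psmd) that bind, unfold and deubiquitinate the substrate. In dendritic cells and in cells exposed to interferon, the catalytic beta subunits are partly replaced by the immunoproteasome subunits, and cDC1 use proteasomes to cut the antigens they cross-present.

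Profiles came from Mouse Gene 2.0 ST arrays of cDC1 sorted from lungs of C57/BL6 mice. The 3 KP(l) arrays were from mice given 100000 cells of the KP tumor cell line through the tail vein, with lungs taken at day 28, and the 4 nLung arrays were from healthy control mice. KP is a transplanted lung adenocarcinoma line. Each array, in both groups, held RNA of cDC1 pooled from 2 to 3 mice, so that mice cannot be told apart within an array. Since whole sorted populations were read, less RNA per cell and fewer cells that express a gene cannot be told apart either. Values are RMA signals on the log2 scale, where a difference of 1 is a doubling, and levels are compared only within a gene.

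The cDC1 markers averaged 9.54 to 9.82 on KP(l) arrays and 9.56 to 9.82 on nLung arrays (13 genes, mean log2 value). Their log2 fold changes in KP(l) over nLung ran from -0.33 (Clec9a) to 0.36 (Itgae), with 10 of the 13 below 0. No adjusted p among them was under 0.912 in limma. Other cell types were uneven among the KP(l) arrays. The 9 measured alveolar macrophage markers averaged 3.67 to 6.55 in KP(l) and 3.54 to 5.73 in nLung, the 10 monocyte and interstitial macrophage markers 4.81 to 6.70 in KP(l) and 4.86 to 5.29 in nLung, and the 7 neutrophil markers 2.97 to 5.29 in KP(l) and 2.86 to 3.09 in nLung, each highest in KP(l) replicate 1. S100a8, a neutrophil gene, stood at 9.70 in KP(l) replicate 1, at 2.55 and 2.07 in the other KP(l) arrays, and at 1.92 to 2.07 in nLung. The 4 measured B cell markers averaged 3.02 to 4.03 in KP(l), again highest in replicate 1, and 2.62 to 2.99 in nLung. These averages did not overlap, but among the single genes only Cd79b had no overlap, as in 3.84% of all probe sets. All 4 genes had means below the median probe-set mean of the array. The 8 epithelial and tumor cell markers averaged 4.41 to 4.92 in KP(l) and 4.42 to 5.21 in nLung, highest in nLung replicate 1. The 7 cDC2 markers averaged 4.18 to 4.47 in KP(l) and 4.01 to 4.44 in nLung, but single genes differed in opposite directions. Cd209a and Irf4 had log2 fold changes of -2.22 and -0.58 in KP(l) over nLung, and Clec10a and Mgl2 of 1.31 and 1.38. Their groups did not overlap, as in 3.84% of all probe sets, and their adjusted p was 0.752 or more in limma. The 8 T and NK cell markers averaged 3.29 to 3.45 in KP(l) and 3.32 to 3.43 in nLung. Proliferation genes (9 measured) averaged 6.49 to 7.03 in KP(l) and 6.62 to 6.96 in nLung. The arrays also form sets that cross the groups, since the upper quartile over all genes lay between 5.11 and 5.17 in replicates 1 and 2 of both groups and between 5.22 and 5.28 in KP(l) replicate 3 with nLung replicates 3 and 4. The part of these features in the results was not tested, and values within each set are given below.

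Promoter sequence of 3 members is shown because the comparisons turn on them. Psma7 was the member whose groups did not overlap, Psma2 had the next smallest p among the alpha genes, and in Psmd9 a single array set the difference. Each is the 250 bases before the annotated start of the gene in RefSeq (GRCm38.p6), 5′ to 3′ on the strand of the gene, at chr2:180042465-180042714 (minus strand) for Psma7, chr13:14612992-14613241 (plus strand) for Psma2 and chr5:123227940-123228189 (plus strand) for Psmd9. Capitals mark CCAAT, the box bound by NF-Y, and TGACNNNGC, a core of the antioxidant response element bound by NFE2L1 and NFE2L2, searched on both strands.
Psma7: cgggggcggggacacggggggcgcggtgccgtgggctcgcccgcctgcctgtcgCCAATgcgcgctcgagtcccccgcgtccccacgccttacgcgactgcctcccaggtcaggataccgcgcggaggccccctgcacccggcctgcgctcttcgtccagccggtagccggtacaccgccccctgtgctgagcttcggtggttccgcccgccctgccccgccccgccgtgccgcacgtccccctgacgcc
Psma2: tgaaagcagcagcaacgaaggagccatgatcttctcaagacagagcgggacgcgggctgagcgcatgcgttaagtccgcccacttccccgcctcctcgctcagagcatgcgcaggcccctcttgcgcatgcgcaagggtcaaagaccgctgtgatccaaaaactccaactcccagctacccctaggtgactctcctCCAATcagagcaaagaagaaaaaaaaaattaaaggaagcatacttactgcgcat
Psmd9: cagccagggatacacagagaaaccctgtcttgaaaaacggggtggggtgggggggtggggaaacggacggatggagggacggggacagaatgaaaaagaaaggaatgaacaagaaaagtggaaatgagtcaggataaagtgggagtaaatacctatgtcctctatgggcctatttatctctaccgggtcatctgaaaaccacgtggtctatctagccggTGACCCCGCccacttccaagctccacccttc
Of the 34 members, 27 had a promoter in the table, with 29 starts in all. TGACNNNGC occurred before 4 of these 29 starts (13.8%), those of Psmb6, Psmc6, Psmd9 and Psmd12, against 10.2% of 32851 promoters of all genes. CCAAT occurred before 11 (37.9%), against 33.8% of all promoters. The windows of Psma7 and Psma2 above hold 1 CCAAT each, and that of Psmd9 holds 1 TGACNNNGC. Of the 29 windows searched, 8 lie wholly or partly past the earliest annotated start of the gene (those of Psma3, Psma4, Psmb6, Psmc6, Psmd2 and Psmd5 and a later start each of Psma6 and Psmc2). A match describes the letters only.

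The constitutive proteasome genes were compared between KP(l) and nLung cDC1. In limma, 0 of the 34 members passed the thresholds (adjusted p up to 0.05 and at least 2-fold), as did 0% of all probe sets. No adjusted p of a member was below 0.912. With an unadjusted p under 0.05 from limma 1 member, Psma7, was higher and 0 were lower, where 2.62% of all probe sets were higher and 2.24% were lower. The groups did not overlap in 1 member (2.94%), again Psma7, against 3.84% of all probe sets (2.12% higher in KP(l) and 1.72% lower). The share of members was thus near that of the array as a whole. The median log2 fold change of the members was 0.09, with 22 genes above 0 and 12 below, while the median over all probe sets was 0.02 and 54.6% of them lay above 0.

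The size of change that the arrays leave room for differed between members. The 95% interval of the fold change lay inside 2-fold in either direction for 26 of the 34 members (76.5%), 12 in the core and 14 in the cap, and for 78.4% of all probe sets. Estimates reached 1.5-fold in 3 members (8.82%, against 7.22% of all probe sets), namely Psmd2, Psmd6 and Psmd9. On the log2 scale the intervals were narrowest for Psmd11 (-0.27 to 0.18) and Psmd13 (-0.14 to 0.30), subunits of the lid of the cap, and for Psmb11, and widest for Psmd6 (-0.58 to 2.11). Psmd11 and Psmd13 each held exactly equal values on 3 arrays. Psmb11 held them on 2 arrays, and its mean lay below the median probe-set mean. The median spread between arrays of a group was 0.29 on the log2 scale for the members, 0.24 for all probe sets and 0.33 for those above the median mean, which include 31 of the members.

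**Figure D1:**
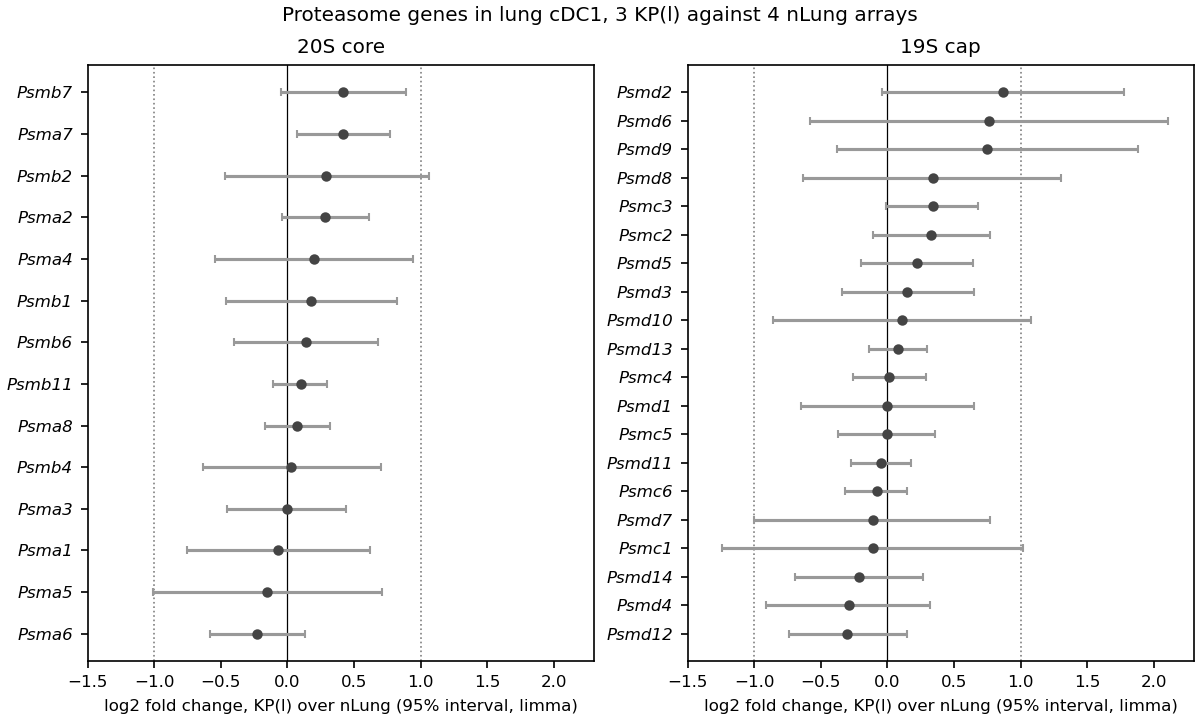
Log2 fold change of KP(l) over nLung for each gene of the 20S core (left) and the 19S cap (right), points with 95% intervals from limma (3 KP(l) and 4 nLung arrays). Dotted lines mark a 2-fold change in either direction. The interval of Psma7 alone lies clear of 0, and those of Psmd6, Psmd9 and Psmd2 reach furthest up.

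The alpha subunits build the outer rings of the core and its gate. Among them Psma7 stood at 10.18, 10.17 and 9.72 in KP(l) and at 9.65, 9.72, 9.42 and 9.64 in nLung. All KP(l) arrays were above all nLung arrays, although KP(l) replicate 3 and nLung replicate 2 round to the same value. KP(l) exceeded nLung by 0.42 on the log2 scale (standard error, SE, 0.15, 95% interval 0.07 to 0.77, unadjusted p = 0.0251 and adjusted p = 0.912 from limma), a fold of 1.34. The log2 difference was 0.49 in replicates 1 and 2 and 0.20 in the other set, and 0.34 to 0.57 when any 1 array was left out. Leaving out KP(l) replicate 1 gave an unadjusted p of 0.0841 from limma. That p was 0.0854 with KP(l) replicate 2 left out and 0.0599 with nLung replicate 3 left out.

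Psma2 was next, at 7.36, 7.82 and 7.66 in KP(l) and 7.22, 7.45, 7.42 and 7.23 in nLung. Its groups overlapped through KP(l) replicate 1, and the log2 fold change was 0.28 (standard error 0.13, adjusted p = 0.912 from limma), or 0.26 and 0.34 within the sets. Psma6 had the lowest fold change of the core, -0.23 (standard error 0.15). It read 9.55, 9.44 and 9.68 in KP(l) and 9.42, 9.90, 9.90 and 9.91 in nLung, so that nLung replicate 1 lay with the KP(l) arrays and the other nLung arrays above them. Without that array the fold change was -0.35. Psma1, Psma3, Psma4 and Psma5 had log2 fold changes of -0.07, 0.00, 0.20 and -0.15, and the means of Psma5 and the testis gene Psma8 lay below the median probe-set mean of the array (3.54). Psma8 read 3.11, 3.11 and 3.12 in KP(l) and 3.11, 3.13, 2.82 and 3.11 in nLung.

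All 6 beta genes had a log2 fold change above 0, from 0.03 to 0.42, although those of Psmb1, Psmb4 and Psmb6 went below 0 when single arrays were left out. Psmb7, which carries the trypsin-like active site, read 9.17, 9.76 and 9.26 in KP(l) and 8.70, 9.04, 9.28 and 8.90 in nLung. KP(l) replicate 2 was high and nLung replicate 3 lay among the KP(l) arrays. This gave a log2 fold change of 0.42 (standard error 0.20, 95% interval -0.05 to 0.89, adjusted p = 0.912 from limma), 0.59 in replicates 1 and 2 and 0.17 in the other set, and 0.24 without KP(l) replicate 2.

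Psmb6, with the caspase-like active site, stood at 8.99, 8.13 and 8.44 in KP(l) and at 8.24, 8.61, 8.15 and 8.54 in nLung. The KP(l) arrays held both the highest and the lowest value of the 7. Their difference on the log2 scale was 0.14 (standard error 0.23), or -0.10 when KP(l) replicate 1 was left out, the array with high S100a8. Psmb2 read 9.71, 9.22 and 9.82 in KP(l) and 9.62, 8.54, 9.22 and 9.78 in nLung, a log2 fold change of 0.29 (standard error 0.32) that was 0.04 without nLung replicate 2. Psmb4 read 8.99, 10.05 and 9.51 in KP(l) and 9.40, 9.27, 9.35 and 9.92 in nLung, a log2 fold change of 0.03 (standard error 0.28). Both genes encode beta subunits without an active site, and their groups overlapped throughout. The thymus gene Psmb11 stayed between 2.70 and 2.92 in KP(l) and between 2.63 and 2.73 in nLung.

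As a whole the core genes had a median log2 fold change of 0.12, with 10 of the 14 above 0, and of 0.16 without Psma8 and Psmb11.

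**Figure D2:**
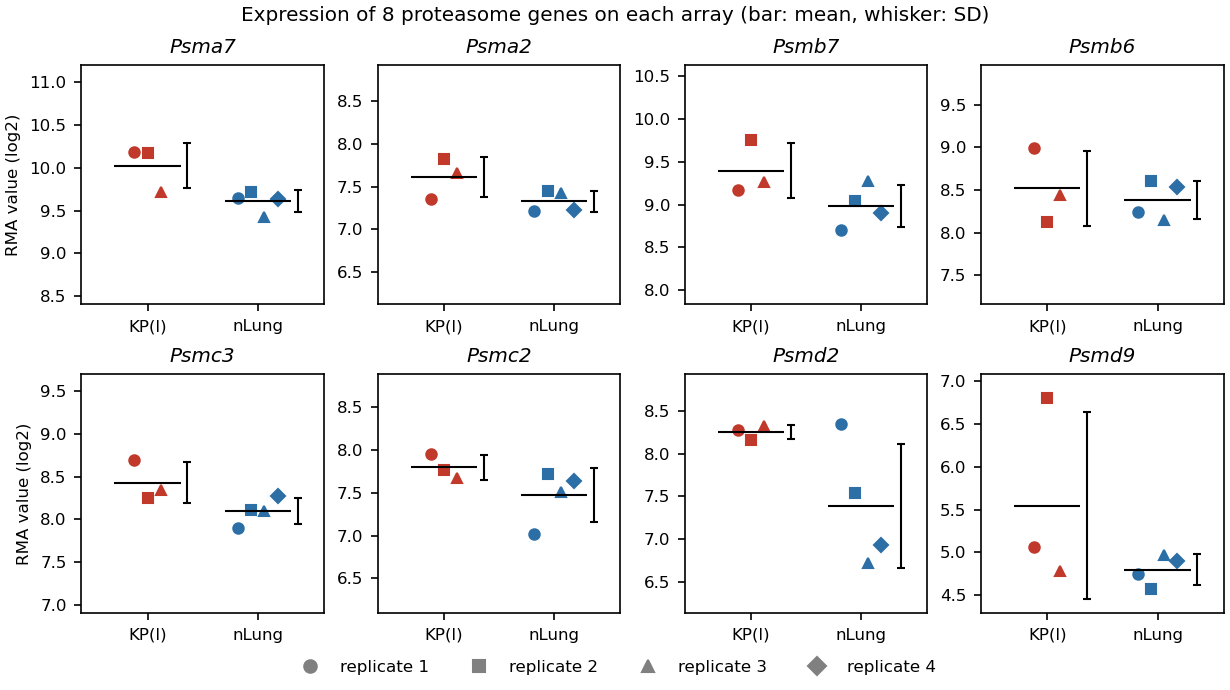
RMA values (log2) of 8 members on each array, KP(l) in red and nLung in blue, with symbols for the replicate number, a line at the mean and a whisker of 1 SD. All panels span the same log2 range. Psma7 has no overlap between groups, Psmd2 spreads among the nLung arrays and Psmd9 among the KP(l) arrays.

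The ATPases Psmc1 to Psmc6 form the ring of the cap that unfolds substrates and opens the gate of the core. Psmc3 read 8.70, 8.25 and 8.34 in KP(l) and 7.90, 8.11, 8.10 and 8.27 in nLung. Overlap came from a single pair, KP(l) replicate 2 and nLung replicate 4. Psmc3 was higher by 0.34 on average (log2 scale, standard error 0.14, 95% interval -0.01 to 0.68, adjusted p = 0.912 from limma), or 0.47 and 0.16 within the sets and 0.20 without KP(l) replicate 1.

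Psmc2 read 7.96, 7.77 and 7.67 in KP(l) and 7.02, 7.72, 7.51 and 7.64 in nLung, which is a log2 fold change of 0.33 (SE 0.19) with all arrays and 0.18 without the low nLung replicate 1. Psmc5 had a log2 fold change of 0.00 (95% interval -0.37 to 0.36), from 8.38, 8.78 and 8.77 in KP(l) and 8.86, 8.63, 8.40 and 8.70 in nLung. Psmc6 read 7.18 on every KP(l) array and 7.26, 7.42, 7.08 and 7.28 in nLung. Psmc1 was the most variable ATPase gene, with 9.55 in nLung replicate 2 and 7.55 to 8.19 on the other arrays, and its log2 fold change was -0.11, or 0.33 without that array.

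The non-ATPase genes had the widest differences of the members. Psmd2 encodes a scaffold of the cap base that docks ubiquitin shuttles. It read 8.27, 8.16 and 8.32 in KP(l) and 8.34, 7.54, 6.72 and 6.93 in nLung. The KP(l) arrays were alike, whereas nLung replicate 1 was above all of them and the other nLung arrays were below. On average KP(l) was 0.87 higher on the log2 scale (standard error 0.38, 95% interval -0.04 to 1.78, adjusted p = 0.912 from limma), a fold of 1.83, with 0.28 in replicates 1 and 2 and 1.5 in the other set. Leaving out 1 array kept it between 0.65 and 1.19.

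Psmd9, the assembly chaperone p27, read 5.06, 6.80 and 4.78 in KP(l) and 4.75, 4.57, 4.97 and 4.90 in nLung. Only KP(l) replicate 2 stood apart. The mean difference of 0.75 on the log2 scale (standard error 0.47) became 0.12 when that array was left out. Psmd6, a lid subunit, read 8.66, 7.84 and 6.78 in KP(l) and 6.18, 7.91, 6.56 and 7.33 in nLung. Both groups spread over more than 1 log2 unit, and its log2 fold change of 0.76 (SE 0.56) was 1.20 in replicates 1 and 2 and -0.16 in the other set, and 0.32 without KP(l) replicate 1.

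On the lower side Psmd12, a lid subunit, read 7.59, 7.56 and 7.97 in KP(l) and 8.41, 7.93, 7.75 and 7.92 in nLung, giving a log2 fold change of -0.30 (SE 0.19), or -0.16 without nLung replicate 1. Psmd14, the deubiquitinase that removes the ubiquitin chain, read 8.33, 8.36 and 7.70 in KP(l) and 8.64, 8.30, 8.17 and 8.26 in nLung, giving a log2 fold change of -0.21 (SE 0.20), or 0.00 without KP(l) replicate 3. In both genes the groups overlapped. Over all omissions of 1 array the log2 fold change ranged between -0.43 and -0.16 for Psmd12 and between -0.33 and 0.00 for Psmd14. The ubiquitin receptor Psmd4 had a log2 fold change of -0.29, which was -0.05 without KP(l) replicate 1 and -0.54 without KP(l) replicate 2. The remaining Psmd genes lay between -0.11 (Psmd7) and 0.34 (Psmd8). The 20 cap genes had a median log2 fold change of 0.05, with 12 above 0, and of 0.00 without the 3 assembly chaperones.

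**Figure D3:**
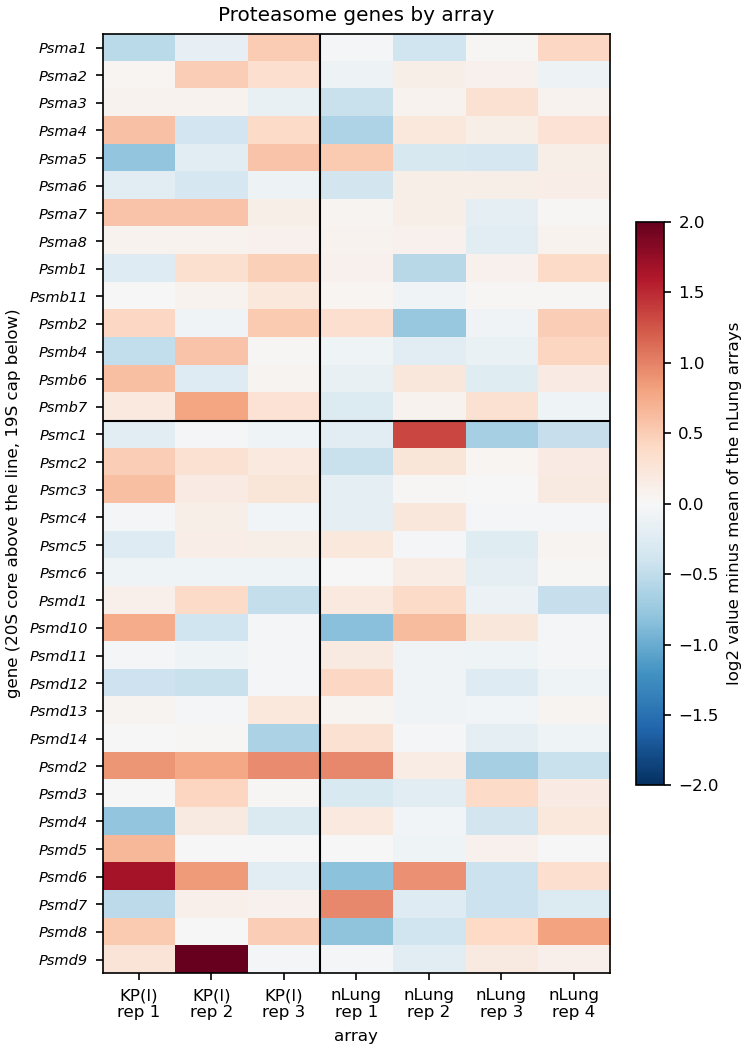
Log2 value of each member on each array minus the mean of its nLung values, KP(l) arrays left of the vertical line and nLung arrays right of it, with the 20S core above the horizontal line and the 19S cap below. Few rows have 1 color across a group, and single cells stand out, such as Psmd9 in KP(l) replicate 2 and Psmc1 in nLung replicate 2.

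Members did not move as 1 block from array to array. The median deviation of the core genes from their nLung means was 0.05, 0.07 and 0.25 on the KP(l) arrays and -0.07, 0.07, 0.02 and 0.13 on the nLung arrays. For the cap genes it was 0.03, 0.11 and -0.02 in KP(l) and 0.00, -0.03, -0.10 and 0.01 in nLung, so that KP(l) replicate 3 had the highest core median but not the highest cap median. Of the 34 members, 12 had their lowest value of the 7 arrays in nLung replicate 1, and 6 had their highest value there. KP(l) replicate 1 held the highest value of 8 members and the lowest of 6. Exactly equal values on 2 or more arrays occurred in 10 members (29.4%), against 55.9% of all probe sets, among them Psma8 and Psmd5 with 4 arrays at the same value.

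The sets of arrays often disagreed on direction. In 17 of the 34 members (50%) the log2 fold change had the same sign within replicates 1 and 2 as within the other 3 arrays, against 51.4% of all probe sets. The share was 9 of 14 in the core and 8 of 20 in the cap. Of the 17, 12 were above 0 in both sets, among them Psma2, Psma7, Psmb7, Psmc2, Psmc3 and Psmd2, as were 6950 of the 25428 probe sets. The other 5 were below 0 in both sets, among them Psma6, Psmd1, Psmd4 and Psmd14, as were 6129 of the probe sets.

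**Figure D4:**
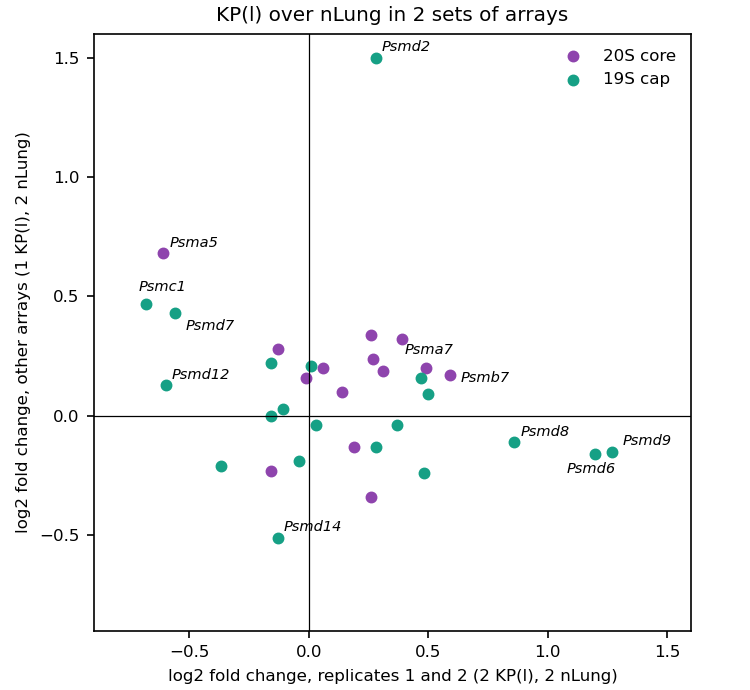
Log2 fold change of KP(l) over nLung within replicates 1 and 2 of both groups (x axis) and within KP(l) replicate 3 with nLung replicates 3 and 4 (y axis), 1 point per member. Psmd2 lies high on the y axis at 1.5, while Psmd6, Psmd8 and Psmd9 are high on the x axis and below 0 on the y axis.

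Of the immunoproteasome subunits that take the place of constitutive ones, Psmb8 read 9.34, 9.45 and 9.28 in KP(l) and 9.31, 9.19, 9.08 and 9.28 in nLung, and Psmb9 read 11.20, 11.36 and 11.10 in KP(l) and 11.12, 11.02, 11.00 and 11.14 in nLung. Their log2 fold changes were 0.14 and 0.15 (standard error 0.09 each), with overlapping groups. Psmb10 had -0.08 (standard error 0.17). The balance with the constitutive partner was read as the difference of the log2 values within each array, of which only the change between groups has a meaning. For Psmb9 over Psmb6 it was 2.70 ± 0.51 in KP(l) and 2.68 ± 0.22 in nLung (SD, n = 3 and 4 arrays, exact two-sided permutation p = 1). For Psmb10 over Psmb7 it was -1.92 ± 0.20 in KP(l) and -1.42 ± 0.35 in nLung (SD), a difference of -0.50 that did not pass (exact two-sided permutation p = 0.0857, or 0.171 adjusted over the 2 pairs). The smallest p that 3 against 4 arrays allow is 0.0286.

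Other genes of the pathway were read as short lists, and limma called 0 of their members. Of the 5 activators and inhibitors of the core (Psme1 to Psme4 and Psmf1), 0 had an unadjusted p under 0.05 in limma, and the median log2 fold change was 0.10. Psme4, the gene of the activator PA200, had the smallest p of them and a log2 fold change of -0.37 (SE 0.27), with 5.27, 6.34 and 6.37 in KP(l) and 6.29, 6.34, 6.34 and 6.46 in nLung, where KP(l) replicate 1 alone was low. Psme1 and Psme2, the interferon-induced PA28 pair, had log2 fold changes of 0.14 (SE 0.13) and 0.24 (SE 0.18).

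The 5 core assembly chaperones had a median log2 fold change of 0.02. Among them Psmg2 had -0.35 (SE 0.20), Psmg1 0.17 (SE 0.32) and Pomp -0.05 (SE 0.38). The 4 measured regulators of proteasome genes had a median of -0.04. Syvn1, a ubiquitin ligase of the endoplasmic reticulum, had -0.49 (SE 0.37), with 5.93, 7.33 and 7.42 in KP(l) and 7.27, 7.23, 7.68 and 7.33 in nLung, where KP(l) replicate 1 was again the low array. Nfe2l1, the transcription factor that raises proteasome genes, had 0.13 (SE 0.11), and Ngly1, the glycanase that processes it, had -0.13 (SE 0.22). The 5 measured genes of other proteins in or on the cap, whose symbols the rule does not take, had a median of 0.31. Among them Uchl5, a deubiquitinase, had 0.49 (SE 0.23), Sem1 0.44 (SE 0.37) and Usp14 0.31 (SE 0.30), and Txnl1 was lowest at 0.02. Among the 7 measured shuttle and VCP genes 1, Vcp, had an unadjusted p under 0.05 in limma, as had 4.86% of all probe sets. The shuttles Ubqln2 and Rad23b had 0.27 (SE 0.15) and 0.21 (SE 0.27).

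Vcp encodes the ATPase that pulls ubiquitinated proteins out of membranes and complexes and delivers them to the proteasome. It read 7.07, 6.76 and 6.65 in KP(l) and 6.15, 6.39, 6.60 and 6.35 in nLung, with all KP(l) arrays above all nLung arrays, a lack of overlap found in 3.84% of all probe sets in either direction. Its log2 fold change was 0.46 (standard error 0.15, unadjusted p = 0.0188 and adjusted p = 0.912 from limma). Uba6, the 1 measured gene of the ubiquitin and E1 list, was at 0.502-fold (unadjusted p = 0.0644 from limma), from 5.55, 6.44 and 7.40 in KP(l) and 7.15, 7.35, 8.08 and 7.26 in nLung, where KP(l) replicate 3 overlapped nLung.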

How the data were processed

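Gene expression was measured on 7 Mouse Gene 2.0 ST arrays, 3 KP(l) and 4 nLung. The deposited log2 values were made by the authors with RMA (background correction, quantile normalization and median polish) in the affy package, with a BrainArray custom definition file of 1 probe set per Entrez gene. Quantile normalization sets the arrays to nearly the same distribution, so that a shift of all genes could not be seen. The number of arrays limits the precision. Symbols came from the platform annotation, which named 24705 of the 25428 probe sets. No probe set was left out.

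For the comparison of KP(l) and nLung, linear models over all probe sets were moderated by eBayes (limma 3.58.1 under R 4.3.3), with Benjamini-Hochberg adjustment. The thresholds were an adjusted p of 0.05 or less and the fold change of the study, 2 or more. The adjusted p stands in place of the permutation false discovery rate of SAM, the test of the study, which was not run. With SAM the study did report differentially expressed transcripts between these groups. Standard errors and 95% intervals are from limma, and its p-values set a difference against the spread between arrays, each of 1 pool of mice. That spread takes in the 2 sets of arrays, which the main model did not include. Named genes were Psmb6, Psmb7, Psma8, Psmb11 and, in each of the families Psma, Psmb, Psmc and Psmd, the 3 members with the smallest p and the 1 with the highest mean. From each companion list of the proteasome pathway they were up to 3 genes with the smallest p, with Psmb8 to Psmb10, Psme1 and Psme2. Lists of cell type markers and proliferation genes were given as averages. Other genes named, among them Psmd6, Psmc1, Txnl1 and S100a8, were chosen after their values were seen. Members, lists and alternatives were chosen with earlier results of these data known. The alternatives were other normalizations, a variance trend, array weights, a filter on dim probe sets, the replicate number or the set of arrays as a block, each set alone, and leaving out each array. Figures were drawn with matplotlib 3.10.9.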

Additional observations from a re-analysis of the deposited data

Results flagged for a closer look

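Within the 4 nLung arrays, 4 of 39 genes examined (the members, Psmb8 to Psmb10, Psme1 and Psme2) had 1 array far from the others by Dixon's outlier test. The nominal rate of this test is about 1 in 20. That rate assumes independent normal values, whereas equal values on 2 or more arrays occurred in 55.9% of all probe sets. The share of such outliers over all probe sets was not computed, so no excess among these genes can be read from the count. Psmd7, a lid subunit, read 8.71 in nLung replicate 1 and 7.32 to 7.49 on the other nLung arrays. Psma6 read 9.42 in nLung replicate 1 and 9.90 to 9.91 elsewhere in nLung. Psma8 read 2.82 in nLung replicate 3 and 3.11 to 3.13 elsewhere, and Psmb11 read 2.63 in nLung replicate 2 and 2.72 to 2.73 elsewhere, both at low signal and with equal values on some arrays. The 3 KP(l) arrays were too few for this test.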

How the results depend on the processing

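The count of called members was 0 in limma under every alternative that kept 2 or more arrays per group. These included a fold threshold of 1.5, no fold threshold and the replicate block. The count over all probe sets was 0 there as well, so that the member count could not come out otherwise. Psma7 had an unadjusted p under 0.05 in most settings but not within the set of KP(l) replicate 3, nor without KP(l) replicate 1, KP(l) replicate 2 or nLung replicate 3. With array weights 3 members (Psma2, Psma7 and Psmd2), all higher in KP(l), had an unadjusted p under 0.05 in limma. So had 1397 of the 25428 probe sets. The set of KP(l) replicate 3 holds 1 KP(l) array, so only log2 fold changes are given there. Psma6 was -0.23, Psmb11 0.20, Psmd2 1.5 and Psmd14 -0.51. The median of the core genes was 0.22 within replicates 1 and 2. That of the cap genes was -0.02 within the other 3 arrays and -0.01 to 0.11 when 1 array was left out, and that of the core 0.06 to 0.18. Within the other 3 arrays Psmb4 was -0.13, Psmd12 0.13 and Psmd9 -0.15, and within replicates 1 and 2 Psma8 was -0.01. Leaving out 1 array took Psmb4 to between -0.23 and 0.30 and Psmb6 to between -0.10 and 0.33. Psmb9 over Psmb6 was -0.02 with the replicate block and between -0.25 and 0.25 when 1 array was left out, and Psmb10 over Psmb7 was between -0.63 and -0.35 there, and -0.50 in limma beside all probe sets, with an unadjusted p of 0.0491. The cause was not tested. The labels link samples of the 2 groups by number only. Deviations of same-numbered arrays correlated at 0.0784, 0.0234 and 0.194 over probe sets, and KP(l) replicate 1 correlated best with nLung replicate 2 (0.0902). KP(l) replicates 1 and 2 correlated positively with nLung replicates 1 and 2 and negatively with nLung replicates 3 and 4. For KP(l) replicate 3 the signs were the reverse. Deviations from the group mean add to 0 within a group, so these signs were fixed by those of KP(l) replicates 1 and 2. The same holds in nLung and makes signs mixed for each KP(l) array. The correlations are therefore no separate evidence for the 2 sets of arrays. The replicate block left 1 member, Psma7, at an unadjusted p under 0.05 in limma, beside 1307 of the 25428 probe sets.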
